A study of Mus musculus with 8 samples.

Results

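Amino acid and peptide transporters were examined in intestinal epithelial cells (IECs) of mice with and without the RNA helicase DDX5. The members were all protein-coding genes of the deposited tables whose symbol places them in solute carrier families 1, 3, 6, 7, 15, 36, 38 or 43. This rule found 68 genes among 20229 protein-coding genes. Of these, 58 were listed in both the colon and the ileum table, and 10 were listed in the ileum table only, where they were counted as 0 in the colon. By family there were 7 Slc1, 2 Slc3, 21 Slc6, 15 Slc7, 5 Slc15, 4 Slc36, 11 Slc38 and 3 Slc43 genes. The symbol rule also took in genes that carry no amino acids. Slc7a6os is a neighbour of Slc7a6 that only shares its name, Slc6a4 carries serotonin, Slc6a8 creatine and Slc43a3 nucleobases.

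RNAseq was performed on IECs from the ileum, the distal part of the small intestine, and from the colon of 2 WT mice, DDX5(+/+) Vil1Cre(+), and 2 DDX5KO mice, DDX5(fl/fl) Vil1Cre(+), with 1 library for each mouse and tissue and 8 libraries in all. The labels give an age of 8 weeks for the mice, and the study's methods describe littermates. Both genotypes carried Cre under the Villin1 promoter, which is active in the intestinal epithelium, so cells other than epithelium kept Ddx5 in the DDX5KO mice. IECs were the cells released by washes with 5 mM EDTA, without a sort. Each mouse gave an ileum and a colon library, which carry its genotype and 1 replicate number.

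Dietary protein reaches the epithelium as small peptides and free amino acids. Carriers in the apical brush border take them up, many driven by sodium, proton or chloride gradients. A separate set in the basolateral membrane passes them on to the blood. Several carriers of the Slc7 family are light subunits that need a heavy subunit, Slc3a1 in the brush border or Slc3a2 in the basolateral membrane, to reach the cell surface. Slc6a19 is the main brush border carrier of neutral amino acids.

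To show the DNA that lies before the genes on which the results turn, the 250 bases upstream of the RefSeq start are given for the brush border heavy subunit Slc3a1 and the basolateral carrier Slc43a2, both higher in the ileum, for the peptide carriers Slc15a1 and Slc15a2, and for Slc6a14, which was higher in the colon. They are read 5′ to 3′ on the strand of the gene, in build GRCm38.p6, from chr17:85028097-85028346 on the + strand, chr11:75531444-75531693 on the + strand, chr14:121505255-121505504 on the - strand, chr16:36784963-36785212 on the - strand and chrX:21714650-21714899 on the + strand. Capitals mark exact matches to short motifs of intestinal transcription factors.
Slc3a1: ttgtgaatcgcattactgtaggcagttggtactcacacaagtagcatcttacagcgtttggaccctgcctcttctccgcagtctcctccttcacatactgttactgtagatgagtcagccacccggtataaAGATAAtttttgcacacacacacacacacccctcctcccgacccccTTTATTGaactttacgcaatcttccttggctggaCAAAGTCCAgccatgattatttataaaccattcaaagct
Slc43a2: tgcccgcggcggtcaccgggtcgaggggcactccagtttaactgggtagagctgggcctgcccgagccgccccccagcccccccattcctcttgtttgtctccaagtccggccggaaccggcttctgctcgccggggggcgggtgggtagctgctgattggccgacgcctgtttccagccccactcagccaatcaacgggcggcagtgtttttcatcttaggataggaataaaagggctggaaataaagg
Slc15a1: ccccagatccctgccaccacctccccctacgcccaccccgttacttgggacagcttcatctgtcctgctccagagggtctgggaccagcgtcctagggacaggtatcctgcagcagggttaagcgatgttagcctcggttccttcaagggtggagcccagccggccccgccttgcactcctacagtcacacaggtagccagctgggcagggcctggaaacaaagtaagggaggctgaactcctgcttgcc
Slc15a2: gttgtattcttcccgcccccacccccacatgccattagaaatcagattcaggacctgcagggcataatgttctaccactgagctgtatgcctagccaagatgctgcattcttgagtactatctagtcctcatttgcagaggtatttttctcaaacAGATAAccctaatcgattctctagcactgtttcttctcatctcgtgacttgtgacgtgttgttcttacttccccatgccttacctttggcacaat
Slc6a14: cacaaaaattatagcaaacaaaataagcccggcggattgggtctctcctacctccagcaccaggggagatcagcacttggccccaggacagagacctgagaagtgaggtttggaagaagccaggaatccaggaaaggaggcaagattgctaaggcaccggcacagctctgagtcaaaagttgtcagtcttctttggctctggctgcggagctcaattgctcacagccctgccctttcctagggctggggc

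The motifs were CAAAGTCCA for HNF4, TTTATNG for CDX, AGATAA for GATA and GTTAAT for a short HNF1 site, searched on both strands after the expression values were known. RefSeq windows were found for 50 of the 68 members, 71 windows in all. The HNF4 motif was in 1 of these 71 windows, that of Slc3a1, against 0.384% of 32817 windows of all genes. The CDX motif was in 2 member windows against 9.81% of all windows, the GATA motif in 5 against 9.99%, and the HNF1 site in 6 against 6.44%. The Slc3a1 window held an HNF4, a CDX and a GATA match, the Slc15a2 window a GATA match, and those of Slc43a2, Slc15a1 and Slc6a14 no match. These counts describe letters only. The window of Slc6a19 lay inside the gene as GENCODE draws it, at chromosome 13, 73679745 to 73704865, and is not shown.

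Between 11571061 and 22984283 reads were counted on genes in each library. Levels are given in CPM, the reads of a gene relative to the library total, after TMM scaling over the 8 libraries. Ddx5 itself was at 700 and 700 CPM in WT ileum, 340 and 326 in DDX5KO ileum, 771 and 706 in WT colon and 367 and 355 in DDX5KO colon, so the DDX5KO libraries held a 0.476-fold level in the ileum and a 0.486-fold level in the colon. The epithelial markers Epcam and Vil1 were at 648 CPM or more in every library. The markers of muscle and nerve summed to at most 2.46 CPM and those of stroma and endothelium to at most 20.2 CPM. Leukocyte markers summed to between 54.3 and 74.9 CPM in the ileum libraries and between 7.06 and 31.9 CPM in the colon libraries. In DDX5KO ileum replicate 2, 3 repeat-like genes took 19.5% of the counts, against 0.226% in DDX5KO ileum replicate 1 and about 4% in both WT ileum libraries. In these bulk samples, fewer cells of a type and less RNA per cell cannot be told apart.

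Of the 68 members, 23 stayed under 1 CPM in every library and 20 were over 10 CPM in every library. Comparisons between tissues tested the 44 members that passed a filter on low counts over the 8 libraries, the colon genotype comparison 40 and the ileum genotype comparison 42. The 24 members that entered no comparison include the carriers best known from nerve cells, such as Slc6a2, Slc6a3, Slc6a5 and Slc6a11. All members together summed to 4725 and 4211 CPM in WT ileum, 6369 and 3925 in DDX5KO ileum, 2666 and 2477 in WT colon and 2816 and 2454 in DDX5KO colon. The lowest of the ileum sums lay above the highest of the colon sums, and the 2 DDX5KO ileum libraries were the highest and the lowest of the 4 ileum libraries.

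The first comparison asked in which gut segment each carrier was expressed. In WT mice, 8 of 11 apical carriers were higher in the ileum and 3 lower. The brush border carrier Slc6a19, the cystine carrier subunits Slc7a9 and Slc3a1 and the imino acid carrier Slc6a20a were 12.9-fold to 727-fold higher there than in the colon. The basolateral carrier Slc43a2 was 39.3-fold and Slc7a15 34.9-fold higher. Slc6a14, a carrier of neutral and cationic amino acids driven by sodium and chloride, was 13.1-fold higher in the colon than in the ileum. By edgeR at an adjusted p-value under 0.05, 18 of the 44 members tested (40.9%) were higher in WT ileum and 10 (22.7%) lower. Among all protein-coding genes tested, 19.8% were higher and 18.4% lower. The median log2 ratio was 0.16 over these members and -0.01 over all protein-coding genes tested.

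Slc6a19 was at 697 and 636 CPM in WT ileum and at 0.893 and 0.924 CPM in WT colon, which corresponds to 17 and 21 counts. In DDX5KO mice it was at 1280 and 593 CPM in the ileum and 2.76 and 3.51 CPM in the colon. No ileum library came near a colon library. The log2 ratio in WT was 9.51 ± 0.46 (SE, n = 2 per group, edgeR adjusted p = 4.52e-06). Per kilobase of gene length, Slc6a19 and Slc3a1 had the highest levels of all members in WT ileum, with 133 ± 8.55 and 132 ± 0.733 CPM per kilobase (SD, n = 2), and these 2 means differed by less than their spread. Slc7a9 followed with 102 ± 11.1, Slc15a1 with 98.3 ± 4.39 and Slc6a8 with 85.0 ± 4.07 CPM per kilobase, where the difference between Slc7a9 and Slc15a1 also lay within their spread.

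Slc7a9, the light subunit that carries cystine and dibasic amino acids, was at 294 and 251 CPM in WT ileum and 3.78 and 3.21 CPM in WT colon, a log2 ratio of 6.29 ± 0.36. Its heavy subunit Slc3a1 was at 304 and 306 CPM in WT ileum and 24.8 and 22.6 CPM in WT colon, a log2 ratio of 3.68 ± 0.36. Both were higher in the ileum, and the light subunit by more. The ratio of Slc7a9 to Slc3a1, per length and within each library, was 0.636 to 0.833 in the 4 ileum libraries and 0.122 to 0.230 in the 4 colon libraries. Slc3a1 shares 26.5% of its exon bases with Prepl on the opposite strand, and without a stated strand setting for the counting its reads cannot be told apart from those of Prepl there.

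Slc15a1, the proton-coupled carrier of small peptides, was at 495 and 465 CPM in WT ileum and 74.0 and 61.4 CPM in WT colon, a log2 ratio of 2.83 ± 0.44. Slc1a1, the carrier of glutamate and aspartate, was at 467 and 378 CPM in WT ileum and 67.4 and 68.4 CPM in WT colon, with a log2 ratio of 2.64 ± 0.13. Here 31.9% of the exon bases are shared with 4430402I18Rik on the opposite strand. Slc6a20a was at 136 and 99.9 CPM in WT ileum and 5.46 and 5.19 CPM in WT colon, with a log2 ratio of 4.47 ± 0.32, and 15.3% of its 50-base words also occur in other genes, most often in its near copy Slc6a20b. The taurine carrier Slc6a6 differed less, with a log2 ratio of 0.75 ± 0.12. Slc6a18, a relative of Slc6a19 best known from kidney and 1722 bases away from it, had 40 and 25 counts in WT ileum and 0 in the colon libraries. Against a floor of 3 counts per library it was at least 12.4-fold higher in WT ileum, and its call was lost when any 1 WT library was left out (adjusted p between 0.0598 and 0.0688).

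The remaining 3 of the 11 members listed as apical carriers were lower in the ileum. Slc6a14 was at 113 and 42.0 CPM in WT ileum and 1082 and 957 CPM in WT colon, a log2 ratio of -3.71 ± 0.68, although WT ileum replicate 1 was well above replicate 2. With 297 ± 25.7 CPM per kilobase in WT colon it stood far above the next member, Slc6a8 with 50.5 ± 2.33, and above Slc1a5, Slc38a2 and Slc6a6 with 34.6 ± 0.389, 23.9 ± 1.59 and 18.8 ± 0.764 CPM per kilobase. Slc1a5, an exchanger of glutamine and other neutral amino acids, was at 69.0 and 61.5 CPM in WT ileum and 145 and 143 CPM in WT colon, a log2 ratio of -1.14 ± 0.12. Slc36a1, a proton-coupled carrier of small amino acids, was at 27.5 and 28.8 CPM in WT ileum and 59.8 and 50.4 CPM in WT colon. Its log2 ratio was -0.97 ± 0.31, and the call was lost when any 1 WT library was left out (adjusted p between 0.087 and 0.174). In the 8 libraries, the ratio of Slc6a19 to Slc6a14 per length was 4.23 to 10.4 in the ileum and 0.000566 to 0.00274 in the colon.

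**Figure D1:**
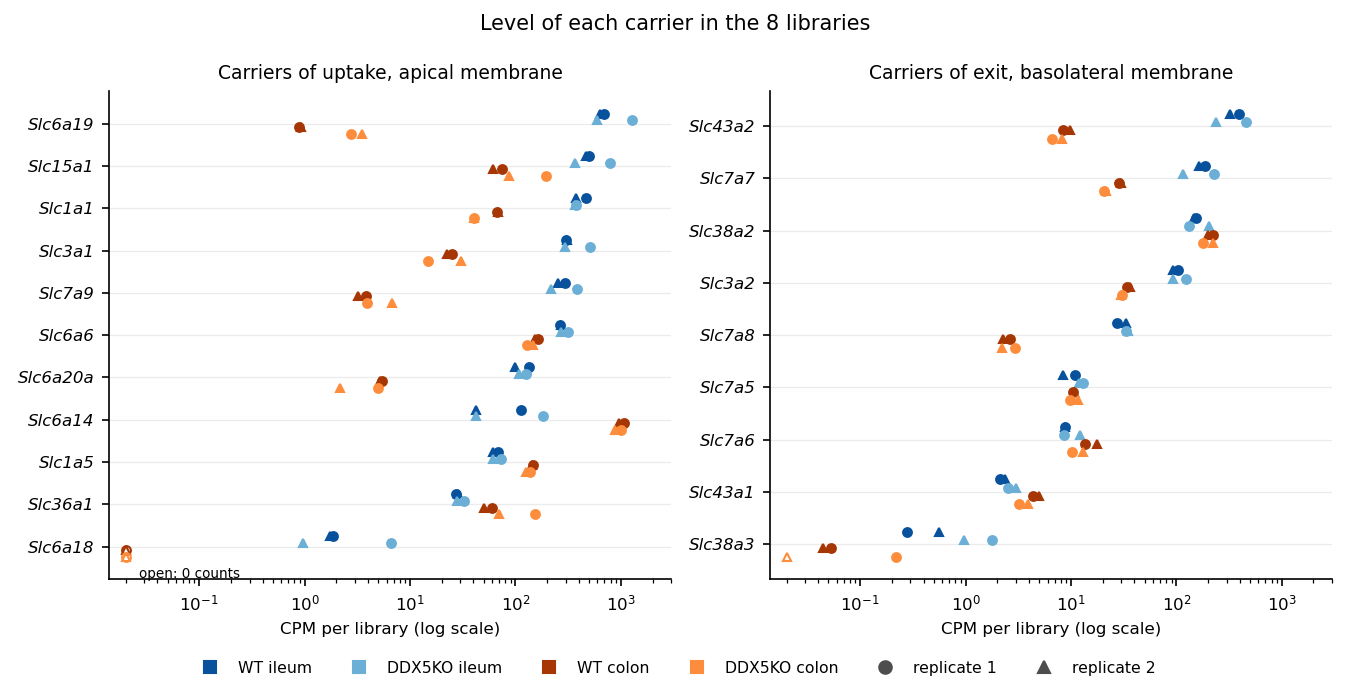
Level of 11 carriers listed as apical and 9 listed as basolateral in each of the 8 libraries. The x axis is CPM on a log scale, colours stand for the 4 groups and shapes for the replicates, and open symbols at the left edge stand for 0 counts. Slc6a19 is at 593 to 1280 CPM in the ileum and at 0.893 to 3.51 CPM in the colon, while Slc6a14 lies the other way round.

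Among the carriers listed for the basolateral membrane, 4 of 9 were higher in WT ileum and 2 lower. Slc43a2, a facilitated carrier of large neutral amino acids, was at 395 and 324 CPM in WT ileum and 8.46 and 9.82 CPM in WT colon, a log2 ratio of 5.30 ± 0.33. Its relative Slc43a1 was low in both tissues and differed in the opposite direction, with 2.12 and 2.36 CPM in WT ileum, 4.36 and 5.02 CPM in WT colon and a log2 ratio of -1.07 ± 0.23. The call for Slc43a1 was lost without WT colon replicate 2 (adjusted p = 0.0649) or WT ileum replicate 1 (adjusted p = 0.0588). The neutral exchanger Slc7a8 was at 27.3 and 33.4 CPM in WT ileum and 2.63 and 2.29 CPM in WT colon, with a log2 ratio of 3.62 ± 0.18. Slc7a6, a relative of Slc7a7, was lower in WT ileum with a log2 ratio of -0.84 ± 0.22, which was no longer called without WT colon replicate 2 (adjusted p = 0.128), WT ileum replicate 1 (0.0868) or WT ileum replicate 2 (0.0814).

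Slc7a7, the light subunit that exports cationic amino acids, was at 188 and 163 CPM in WT ileum and 28.7 and 29.9 CPM in WT colon, a log2 ratio of 2.58 ± 0.27. The heavy subunit Slc3a2 was at 104 and 92.5 CPM in WT ileum and 34.1 and 36.0 CPM in WT colon, with a log2 ratio of 1.49 ± 0.15. As in the brush border pair, the light subunit differed by more than its partner. The ratio of Slc7a7 to Slc3a2 per length was 1.34 to 1.94 in the ileum libraries and 0.714 to 0.897 in the colon libraries. Slc7a5, a light subunit found in many dividing cells, was at 8.39 to 13.0 CPM in all 8 libraries, with a log2 ratio of -0.13 ± 0.17. Slc38a2, a sodium-coupled carrier of small neutral amino acids, had a log2 ratio of -0.49 ± 0.20 (adjusted p = 0.0977).

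**Figure D2:**
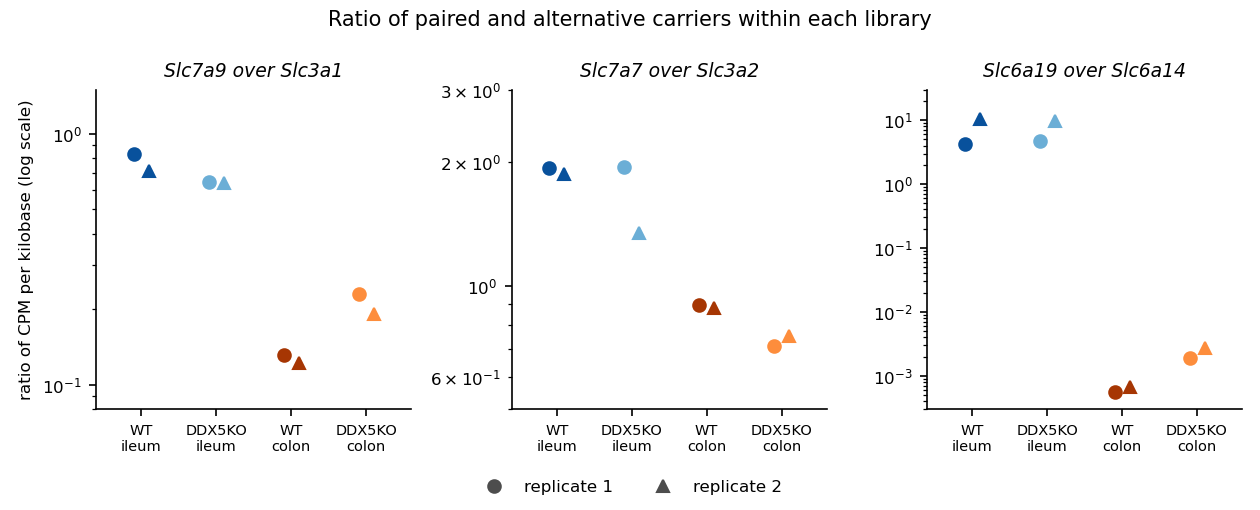
Ratio of CPM per kilobase of a light to a heavy subunit (Slc7a9 over Slc3a1, Slc7a7 over Slc3a2) and of the brush border carriers Slc6a19 and Slc6a14, within each library and on log axes. Each point is 1 library, and in each panel all 4 ileum libraries lie above all 4 colon libraries, for Slc7a9 over Slc3a1 at 0.636 to 0.833 against 0.122 to 0.230.

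Outside these lists, Slc7a15 was at 15.9 and 16.6 CPM in WT ileum and 0.683 and 0.264 CPM in WT colon, a log2 ratio of 5.13 ± 0.69. The serotonin carrier Slc6a4, which ends the action of serotonin released by enteroendocrine cells, was at 66.9 and 53.8 CPM in WT ileum and 10.1 and 7.04 CPM in WT colon, with a log2 ratio of 2.82 ± 0.31. The neutral carrier Slc1a4 was lower in the ileum with a log2 ratio of -0.81 ± 0.25, Slc38a11 with -2.09 ± 0.54 and the nucleobase carrier Slc43a3 with -1.09 ± 0.34. These 3 calls were fragile. Slc1a4 was not called when any 1 WT library was left out (adjusted p between 0.0832 and 0.158), nor was Slc43a3 (0.13 to 0.168), which was also lost without either DDX5KO colon library (0.057 and 0.0572), by DESeq2 (0.186) and with no filter (0.0772), and Slc38a11 was not called without WT colon replicate 1 (0.102) or WT ileum replicate 1 (0.136).

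With the mouse as a block, which pairs the ileum and colon library of each mouse, 31 members were called in WT. Of these, 27 were among the 28 above. Of all protein-coding genes tested, 42.3% were called with this block and 38.2% without it. Slc43a3 was lost (adjusted p = 0.0588), and Slc6a7, Slc6a8, Slc7a11 and Slc38a2 were added with log2 ratios of 0.65, 0.75, -0.76 and -0.49. Without WT colon replicate 2 or WT ileum replicate 1, fewer members were called in WT, and fewer of all protein-coding genes tested.

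**Figure D3:**
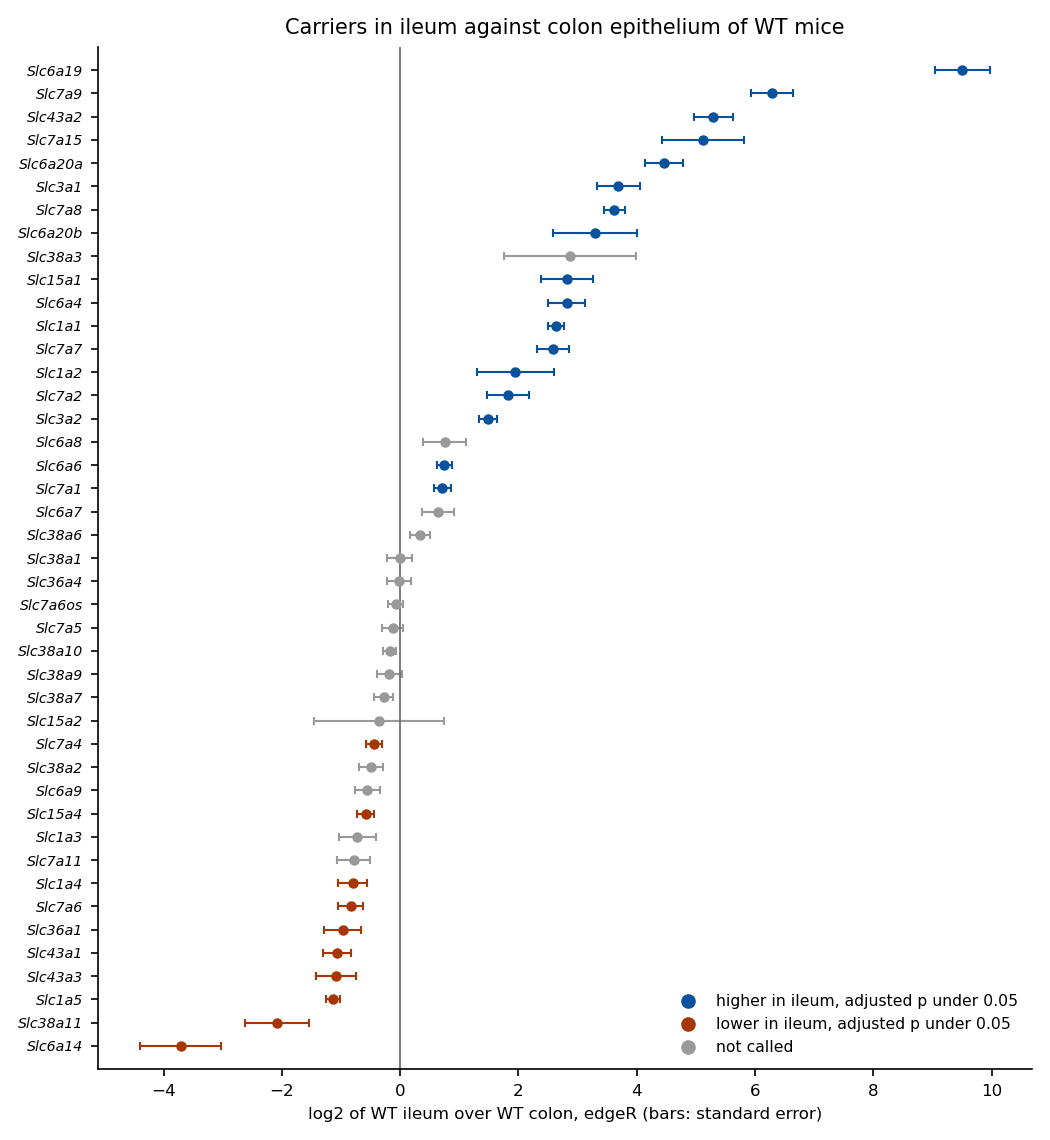
Log2 ratio of WT ileum over WT colon for the 43 members tested that had counts in WT colon, with the standard error from edgeR. Blue marks members higher in the ileum and red-brown members lower at an adjusted p-value under 0.05, from Slc6a19 at 9.51 to Slc6a14 at -3.71.

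In DDX5KO mice, 19 of the 44 members (43.2%) were higher in the ileum and 6 (13.6%) lower, against 20.7% and 18.4% of all protein-coding genes tested. The median log2 ratio was 0.25 over the members and -0.002 over all protein-coding genes tested. Of the 11 apical carriers, 8 were higher and 3 lower, as in WT, and of the 9 basolateral carriers 5 were higher and none lower. Slc6a19 had a log2 ratio of 8.21 ± 0.42, Slc7a9 of 5.80 ± 0.35, Slc43a2 of 5.53 ± 0.33 and Slc6a14 of -3.06 ± 0.66. Slc38a3, a glutamine carrier, was called higher on 19 and 9 counts against 4 and 0, and lost the call without DDX5KO ileum replicate 1 (adjusted p = 0.0725). Slc1a4 was called at an adjusted p of 0.045, which 6 of the 8 libraries, left out singly, moved above the threshold (0.0643 to 0.159). Slc43a3 lost its call without DDX5KO ileum replicate 2 (adjusted p = 0.0521).

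Genes that act beside these carriers were counted as well. Of 10 genes for brush border peptide digestion and carrier partners, 9 were tested. In WT, 8 of them were higher in the ileum and none lower, where 19.8% of all protein-coding genes tested were higher. The sodium-proton exchanger Slc9a3 ran the other way, with a log2 ratio of -0.81 in WT (edgeR adjusted p = 0.111) and -1.65 in DDX5KO mice (adjusted p = 0.00815), where it was called lower. Anpep, which trims amino acids from peptides at the brush border, was at 4084 and 2885 CPM in WT ileum and 2.15 and 1.85 CPM in WT colon. Cltrn, the partner of Slc6a19 in the kidney, was at most at 0.642 CPM in any library. The aromatic amino acid carrier Slc16a10 was at 55.9 and 59.9 CPM in WT ileum and 7.77 and 5.99 CPM in WT colon. The 6 markers of ileal enterocytes summed to between 5183 and 10185 CPM in the ileum libraries and between 173 and 344 CPM in the colon libraries, and their part in these differences was not tested.

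The second comparison asked which carriers differed between DDX5KO and WT colon. Higher in DDX5KO colon were the peptide carrier Slc15a1, the amino acid carriers Slc6a19, Slc36a1 and Slc6a7, and the serotonin carrier Slc6a4, by 1.87-fold to 3.41-fold. Slc6a7 carries proline. The peptide carrier Slc15a2, Slc1a1 and the cystine-glutamate exchanger Slc7a11 were lower, by 1.68-fold to 17.3-fold. These calls used the study's criterion of a log2 fold change of at least 0.5 either way with an unadjusted p-value under 0.05. The same criterion served with a library left out. Those fits ran over the remaining 7 libraries without the replicate block, so a lost call can reflect the library or the missing block. By edgeR with the replicate block, 5 of 40 members tested (12.5%) were called higher and 3 (7.5%) lower, where 2.64% and 4.01% of all protein-coding genes tested were called. No member had an adjusted p-value under 0.05 by edgeR, nor did any other gene (0.0% called). An unadjusted p-value under 0.05 was found for 12 of 40 members and for 1836 of the 15362 genes of all types tested. DESeq2 gave an adjusted p-value under 0.05 for 3 members with the block and for 4 without it, with only Slc1a1 in both sets. Of the 15362 genes of all types tested, 117 had one with the block and 183 without it. The median log2 fold change was -0.03 over the members tested and -0.002 over all protein-coding genes tested.

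Slc6a19 was at 0.893 and 0.924 CPM in WT colon and 2.76 and 3.51 CPM in DDX5KO colon, from 17 and 21 against 50 and 77 counts. The groups did not overlap, and the level stayed far below that of the ileum in both genotypes. The log2 fold change was 1.77 ± 0.29 (edgeR adjusted p = 0.239), and it was called with each library left out in turn. The peptidase Anpep was also called higher in DDX5KO colon, with 3.31 and 3.37 CPM.

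Slc15a1 was at 74.0 and 61.4 CPM in WT colon and 195 and 87.2 CPM in DDX5KO colon, and Slc36a1 at 59.8 and 50.4 against 153 and 69.6 CPM. In both cases the groups did not overlap, and DDX5KO colon replicate 1 lay apart from the other 3 libraries. The log2 fold changes were 0.94 ± 0.22 (edgeR adjusted p = 0.303) for Slc15a1 and 0.90 ± 0.22 (adjusted p = 0.307) for Slc36a1. Without DDX5KO colon replicate 1 they were 0.36 and 0.34 and were not called, and without DDX5KO colon replicate 2 they were 1.53 and 1.47. Slc15a1 was also not called without WT colon replicate 1 or WT colon replicate 2 (1.20 and 0.93), nor was Slc36a1 without WT colon replicate 2 (0.89).

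Slc6a4 was at 10.1 and 7.04 CPM in WT colon and 22.6 and 13.4 CPM in DDX5KO colon, a log2 fold change of 1.03 ± 0.15 (edgeR adjusted p = 0.217). It was not called without DDX5KO colon replicate 1 (0.65) or WT colon replicate 2 (0.82). Slc6a7, best known from brain synapses, was at 7.30 and 8.54 CPM in WT colon and 23.0 and 12.8 CPM in DDX5KO colon, a log2 fold change of 1.10 ± 0.29 (adjusted p = 0.319). It stayed called with each library left out, from 0.68 without DDX5KO colon replicate 1 to 1.53 without replicate 2.

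Slc1a1 was the most even of the lower genes, with 67.4 and 68.4 CPM in WT colon against 40.6 and 40.7 CPM in DDX5KO colon. Its log2 fold change was -0.75 ± 0.09 (edgeR adjusted p = 0.166), and it was called with each library left out and in all 12 alternatives. Slc7a11, which imports cystine for glutathione synthesis, was at 6.72 and 9.38 CPM in WT colon and 3.48 and 3.78 CPM in DDX5KO colon, a log2 fold change of -1.15 ± 0.21 (adjusted p = 0.26). It too was called in all 12 alternatives. Slc7a7 missed the criterion with a log2 fold change of -0.49 ± 0.10 (adjusted p = 0.264), at 28.7 and 29.9 CPM in WT colon and 20.6 and 21.3 CPM in DDX5KO colon.

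Markers of other cells also differed between the colon libraries. Of 6 markers of ileal enterocytes, 4 were tested. Fabp6 was called higher in DDX5KO colon, at 2.76 and 3.56 CPM against 1.26 and 1.67 CPM in WT colon. Mttp, at 3.59 and 3.33 against 2.94 and 1.89 CPM, was not called. Nor were Fabp2, at 157 and 271 against 192 and 181 CPM, and Slc10a2, at 9.27 and 65.4 against 39.9 and 39.0 CPM. Of 6 markers of surface colonocytes, Car4, Slc26a3, Aqp8 and Muc3 were called higher in DDX5KO colon, and Car1 and Ggh were not called. Car4 and Muc3 were called higher in WT ileum than in WT colon (log2 ratios of 1.07 and 0.78), so these 2 were not particular to the colon. Of 4 Paneth cell markers, Itln1 and Ang4 were called lower, and Mmp7 and Lyz1 were not called. Lyz1, which defines Paneth cells, was at 0.456 to 2.10 CPM in all 4 colon libraries. Of 5 goblet cell markers, Fcgbp and Clca1 were called lower. Muc2, Tff3 and Agr2 were not called, with log2 fold changes of 0.09, -0.15 and -0.22. The 8 leukocyte markers summed to 31.9 and 25.3 CPM in WT colon and 7.06 and 14.8 CPM in DDX5KO colon, with Ptprc and Cd8a called lower of the 5 tested and the B cell marker Cd79a at 0 to 0.0525 CPM. Of the markers of stroma and endothelium, 6 were tested, 1 called higher and 2 lower. The part of these cells in the differences between carriers was not tested.

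**Figure D4:**
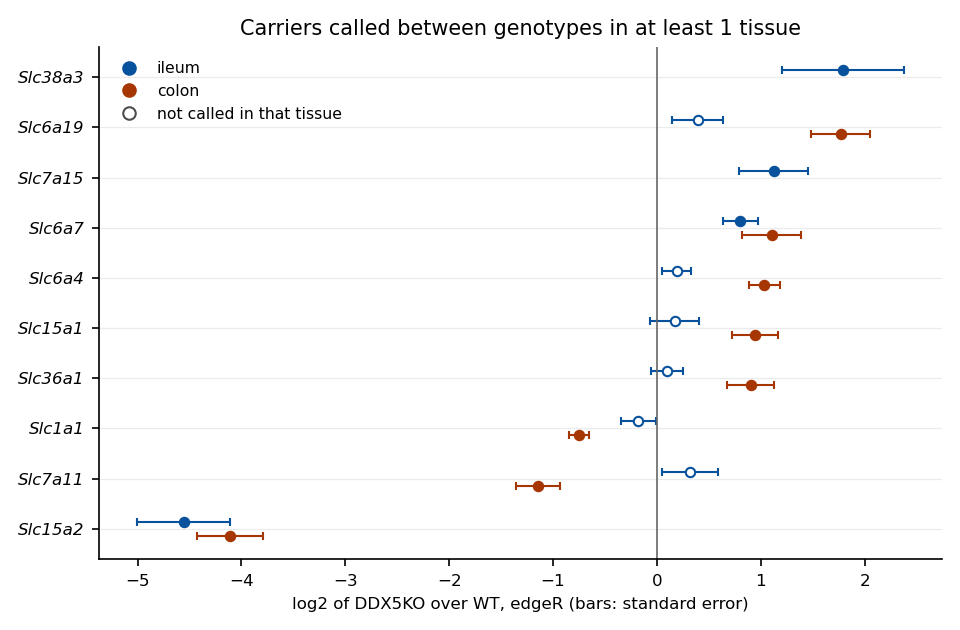
Log2 fold change of DDX5KO over WT in the ileum (blue) and colon (red-brown) for the 10 members called in at least 1 tissue, with the standard error from edgeR. Filled points were called in that tissue and open points were not, and Slc38a3 and Slc7a15 were not tested in the colon. Slc15a2 lies at -4.55 and -4.11, and Slc6a7 at 0.80 and 1.10.

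The third comparison was DDX5KO against WT in the ileum. Here the large absorptive carriers were not called. Slc6a7, Slc7a15 and Slc38a3 were higher in DDX5KO ileum by 1.75-fold to 3.46-fold, and Slc15a2 was lower by 23.5-fold. By the same criterion, 3 of 42 members tested (7.14%) were called higher and 1 (2.38%) lower, where 3.78% and 2.83% of all protein-coding genes tested were called. Slc15a2 was the only member with an adjusted p-value under 0.05, where 0.705% of all protein-coding genes tested had one. The median log2 fold change was 0.13 over the members and 0.004 over all protein-coding genes tested, with 33 of 42 members above 0.

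Several carriers with high levels in the ileum differed between the 2 DDX5KO libraries. Slc6a19 was at 1280 and 593 CPM there against 697 and 636 in WT, a log2 fold change of 0.39 ± 0.24 (edgeR adjusted p = 0.569). Slc15a1 was at 795 and 365 CPM against 495 and 465, Slc3a1 at 510 and 295 against 304 and 306, and Slc43a2 at 455 and 237 against 395 and 324. In each of these, DDX5KO replicate 1 was the highest and replicate 2 the lowest of the 4 libraries. The ileal enterocyte markers summed to 10185 and 5183 CPM in DDX5KO ileum and 7025 and 5762 CPM in WT ileum, again highest in DDX5KO replicate 1 and lowest in DDX5KO replicate 2. Their part was not tested. Slc1a1 did not show this, with 373 and 367 CPM in DDX5KO ileum and 467 and 378 CPM in WT ileum. Calls were also made with single libraries left out, where the fit had no replicate block. A lost call can thus reflect the removed library or the missing block. Without DDX5KO ileum replicate 1, none of the 4 members above kept its call. Without DDX5KO ileum replicate 2, the library with the repeat-like counts, 3 of the 4 kept it. Without WT ileum replicate 1, none of the 4 did.

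Slc6a7 was at 11.8 and 13.0 CPM in WT ileum and 23.6 and 19.5 CPM in DDX5KO ileum, without overlap. Its log2 fold change was 0.80 ± 0.17 (edgeR adjusted p = 0.0715), and it was not called without DDX5KO ileum replicate 1 (0.65) or WT ileum replicate 1 (0.73). It was called higher in both tissues, and both its DDX5KO libraries lay above both WT libraries in each. The mice are the same in both tissues, so the tissues are not independent. Its nearest protein-coding neighbour is Cdx1, 4640 bases away.

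Slc7a15 was at 15.9 and 16.6 CPM in WT ileum and 63.2 and 18.0 CPM in DDX5KO ileum. The call rested on DDX5KO replicate 1. The log2 fold change was 1.13 ± 0.33 (edgeR adjusted p = 0.188), but 0.14 without that library and 1.98 without DDX5KO ileum replicate 2. It was not called without the first of these, nor without either WT library (1.29 and 1.37). Slc38a3 was called on 6 and 8 counts in WT against 19 and 9 in DDX5KO ileum, a log2 fold change of 1.79 ± 0.59 (adjusted p = 0.24). It was not called without DDX5KO ileum replicate 1 (1.26) or without either WT library (1.30 and 2.30).

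Slc15a2, a peptide carrier of high affinity best known from the kidney, showed the largest difference between genotypes of all members tested in either tissue. It lies at chromosome 16, 36750177 to 36784962. In the ileum it was at 14.8 and 1.94 CPM in WT and 0.468 and 0.214 CPM in DDX5KO mice, from 321 and 28 against 5 and 2 counts. In the colon it was at 20.6 and 1.72 CPM in WT and 1.32 and 0.0456 CPM in DDX5KO mice, from 393 and 39 against 24 and 1 counts. The groups did not overlap in either tissue, but in the colon WT mouse 2 lay close to DDX5KO mouse 1. The log2 fold change was -4.55 ± 0.45 in the ileum (edgeR adjusted p = 0.00307) and -4.11 ± 0.31 in the colon (adjusted p = 0.0749). Without the replicate block the adjusted p was 0.492 in the ileum and 0.381 in the colon. In the colon it did not meet the criterion by DESeq2 without the block or with crossed replicate numbers (log2 fold changes of -4.04 and -3.44).

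The size of the Slc15a2 difference depended on WT mouse 1. Without it, the log2 fold change was -2.46 in the ileum and -1.40 in the colon, and neither was called. It was also not called in the ileum without DDX5KO ileum replicate 1 (-5.30) or replicate 2 (-4.17), nor in the colon without DDX5KO colon replicate 2 (-3.05), and it was -7.71 without DDX5KO colon replicate 1. The difference between the 2 WT mice themselves was 2.87 on the log2 scale in the ileum and 3.51 in the colon. In a search made after these values were seen, among genes with at least 2 CPM in 1 library and with 0.1 CPM added before the log, 6 protein-coding genes differed by more than 1.5 on the log2 scale between the 2 WT mice in the same direction in both tissues, and Slc15a2 was the 1 of them that was higher in WT mouse 1. The others, higher in WT mouse 2, were Hspa1a, Hspa1b, Capn11, Hsph1 and Angptl4.

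**Figure D5:**
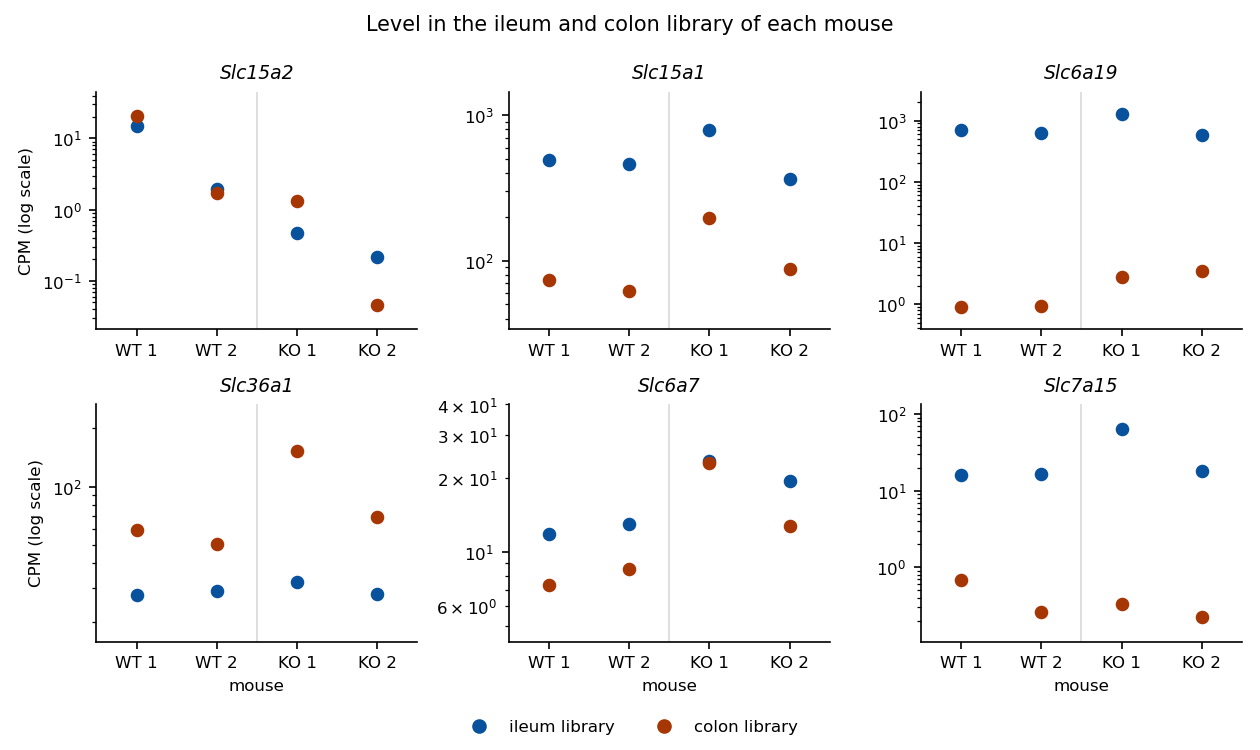
CPM of 6 members in the ileum (blue) and colon (red-brown) library of each of the 4 mice, on log axes. Slc15a2 takes the same order of mice in both tissues. It runs from 14.8 and 20.6 CPM in WT mouse 1 to 0.214 and 0.0456 CPM in DDX5KO mouse 2. Slc15a1, Slc6a19, Slc36a1, Slc6a7 and Slc7a15 are each highest in DDX5KO mouse 1 in at least 1 tissue.

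Whether the difference between genotypes differed between ileum and colon was tested as an interaction over the 8 libraries. None of the 44 members had an adjusted p-value under 0.05 by edgeR, where 0.0153% of all protein-coding genes tested had one, and the lowest value among the members was 0.956. An unadjusted p-value under 0.05 was found for 3 members by edgeR and for 5 by DESeq2, which also gave no adjusted call. Of the 16178 genes of all types tested, 755 had an unadjusted p-value under 0.05 by edgeR and 490 by DESeq2. For Slc7a11, the difference of the log2 fold changes, ileum minus colon, was 1.51 ± 0.42 (SE), for Slc1a1 0.55 ± 0.18 and for Slc6a19 -1.29 ± 0.53. With no filter on low counts, edgeR gave an adjusted p-value under 0.05 for 5 of 68 members and for 0.974% of all protein-coding genes tested. The 5 were Slc36a1, Slc6a19, Slc6a4, Slc7a11 and Slc7a15, each called between genotypes in 1 tissue only. With the filter, no member called in 1 tissue was shown to differ between the tissues.

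Of the genes that respond to amino acid shortage through the transcription factor ATF4, 17 of 19 were tested in the colon and none was called between genotypes, where 6.64% of all protein-coding genes tested were called in either direction. In the ileum 18 were tested and 3 called higher, none lower, against 3.78% of all protein-coding genes called higher there. These were Chac1, which degrades glutathione, at 2.22 and 2.29 CPM in WT and 4.31 and 4.18 CPM in DDX5KO ileum, the transcription factor Cebpb at 7.94 and 8.26 against 21.7 and 12.2 CPM, and Pycr1, an enzyme of proline synthesis, at 3.23 and 2.64 against 6.47 and 6.85 CPM. Asns, the asparagine synthetase that is a standard target of ATF4, was at 44.6 and 38.0 CPM in WT and 45.7 and 47.9 CPM in DDX5KO ileum (log2 fold change 0.18, adjusted p = 0.664). Of the genes for brush border peptide digestion and carrier partners, 9 were tested in the ileum. The aromatic amino acid carrier Slc16a10 (edgeR adjusted p = 0.103) and the scaffold Pdzk1 (adjusted p = 0.112) were called higher in DDX5KO ileum. The peptidase Mep1b (adjusted p = 0.156) was called lower, where 3.78% and 2.83% of all protein-coding genes tested were called higher and lower. In the colon, Anpep (edgeR adjusted p = 0.375) and the sodium-proton exchanger Slc9a3 (adjusted p = 0.166) were called higher and none lower, of 8 tested. There, 2.64% of all protein-coding genes tested were called higher and 4.01% lower.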

How the data were processed

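RNAseq of IECs was analysed in 8 libraries, 2 for each genotype and tissue, grouped by their labels. The authors deposited a table for each tissue with raw counts from featureCounts (STAR 2.6.1a, mm10, uniquely mapped reads over GENCODE exons). The labels call the libraries stranded and ribodepleted, and the strand setting of the counting was not given in the sources used here. The authors also deposited a normalized signal, the counts divided by DESeq2 size factors (version 1.18.1), and gene lengths. Columns of the authors' own genotype comparison (log2 fold change and its error, Wald score, p-values) were deposited too and were not used.

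Raw counts of both tables were joined by gene ID, and genes listed in 1 table were counted as 0 in the other. Genes were kept by filterByExpr (minimum count 10), scaled by TMM and tested with edgeR 4.0.16 (R 4.3.3) by its quasi-likelihood test, with Benjamini-Hochberg adjustment over all genes tested. Genotypes were compared within each tissue with the replicate number as a block, since the study used a harvest covariate, and called at the cutoffs it used, an absolute log2 fold change of 0.5 or more with an unadjusted p-value under 0.05. With 2 libraries per group and a block, 1 residual degree of freedom is left per gene, so the test leans on the spread over all genes. Tissues and the interaction were tested over the 8 libraries without a block. The log2 fold changes come from these fits, and CPM from TMM over the 8 libraries. DESeq2 1.42.0 was an alternative, together with RLE scaling, no filter, other blocks and a fit over the 8 libraries. Removal of 3 repeat-like genes and other call rules were alternatives too. Each library was also left out, in one fit over the remaining 7 without the replicate block. In that fit a lone library is assumed to vary like the other groups. A genotype call lost there can reflect the removal or the missing block. The fits were tested on simulated counts.

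Ileum and colon libraries of the same genotype and replicate number were tied to 1 mouse by the animal numbers in the column names of the study's supplementary tables, whose values match the deposited columns of these replicates. Deviations from the group means correlated over 16178 genes at r = 0.181 (WT) and 0.21 (DDX5KO) between the tissues of 1 mouse, and at 0.0253 (colon) and 0.241 (ileum) between same-numbered libraries of both genotypes. The p-values rest on 2 mice per genotype. In the genotype comparisons they measure the spread left after the replicate block, not the full spread between mice of a genotype. In the tissue and interaction tests they measure the spread within groups.

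The members and lists were chosen with earlier results of these data known. Named are members called between genotypes, the 8 members with the largest log2 ratio in each direction in WT, the 5 with the highest CPM per kilobase in each WT tissue, and the apical and basolateral lists. Slc6a18 and Slc38a3, with few or no counts in the colon, are given by counts or a bound. Positions and exon overlaps come from GENCODE mouse release 21 (GRCm38), where 65 of 68 gene IDs matched. The other 3, Slc1a1, Slc3a1 and Slc6a7, were found there under another ID version. Their overlaps and distances can therefore differ from those of the exons counted. Overlaps and shared 50-base words (over all transcripts of a gene) describe the annotation. Sequences come from RefSeq, GRCm38.p6. Some items of these lists are not reported here.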

Additional observations from a re-analysis of the deposited data

How the results depend on the processing

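The direction of each named call was kept under every alternative run. Of the values for single genes under an alternative, 28 fell short of the threshold and 258 did not for WT ileum against WT colon, 8 and 252 for the tissues of DDX5KO mice, 13 and 83 for the colon and 14 and 34 for the ileum genotype comparison. In the colon, DESeq2 without the block called 5 members against 8, an adjusted p-value under 0.05 called 0, and leaving out single libraries gave 5 to 9. In the ileum, DESeq2 with the block called 2 members against 4, an adjusted p-value under 0.05 called 1, and leaving out single libraries gave 1 to 8. For WT ileum against WT colon this range was 17 to 32, against 28. For the interaction, keeping genes with low counts gave 5 members (Slc36a1, Slc6a19, Slc6a4, Slc7a11 and Slc7a15) against 0. The cause of these shifts was not tested. Without the replicate block, 8 members were called in the colon and 4 in the ileum, as with it. The study describes littermate pairs and a harvest covariate, but ties neither to a replicate number. Crossed pairs gave 7 and 4. The mouse block moved no other call than those given for WT.

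Counts over all protein-coding genes moved as well. In the colon 834 genes met the criterion, against 463 by DESeq2 with the block, 524 without WT colon replicate 1 and 1531 without DDX5KO colon replicate 2. In the ileum 797 did, against 362 and 452 by DESeq2 with and without the block and 1298 without DDX5KO ileum replicate 2. In WT, 5003 genes differed between the tissues, against 2566 with a log2 ratio of at least 1 and 2890, 2982 and 3162 without WT colon replicate 1, WT colon replicate 2 and WT ileum replicate 2. In DDX5KO mice 5113 did, against 2666 with a log2 ratio of at least 1. The interaction gave 2 genes by edgeR, 17 by DESeq2, 197 with no filter, 29 without DDX5KO colon replicate 2, 1 without DDX5KO colon replicate 1 or with the mouse block, and 0 without either DDX5KO ileum library or any 1 WT library. With few counts behind Slc38a3, Slc6a18 and Slc15a2, their fold changes are imprecise.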
